A study of Drosophila melanogaster with 2 samples.

Results

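The 35 genes described here are protein-coding genes of Drosophila melanogaster that were abundant in the adult hindgut and are still known by a CG number, the identifier given to a gene predicted from the genome sequence until it receives a name. They were chosen by their mean per the authors' deposited table, which had to be at least 10000 normalized counts, and by their position on chromosome arm 2L up to 22247875 or on 3L up to 5149852. They are 35 of 23932 features in the table and of 1412 CG-named protein-coding genes in those stretches, 1078 of which had any count. The mean was therefore a criterion of choice and is given as a description. The rule also left out 6 CG-named genes, 5 of which had a sufficient mean. A CG number does not mean that nothing is known: a protein family could be given from general knowledge for 19 of the 35, whereas no role is given here for the other 16.

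RNA came from hindguts of bynGal4 animals at 2 ages. byn, or brachyenteron, is a T-box transcription factor gene of the hindgut, and bynGal4 is a driver line that expresses the yeast activator Gal4 under its control; both groups carried it and no responder transgene is named. All animals were raised at 25 °C (the labels omit the unit). Young guts were dissected as the adults eclosed, and mature guts after 4 days at 18 °C, so age and adult temperature cannot be told apart. Each age comprised 100 to 150 pooled guts and 3 replicates, sequenced as 150-base read pairs. The files analysed here hold no value per library: each gene has 1 mean over both ages, 1 log2 fold change of young against mature, and its standard error (SE). Nothing says that the replicates came from separate animals, so the SE and p-values cover the spread among these libraries alone, possibly technical.

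The ileum, the cell type given in the labels, is the tubular part of the hindgut in which a cuticle-lined epithelium surrounded by visceral muscle recovers ions, water and small solutes from the gut contents. Carriers and pumps in its membranes, secreted and surface proteins, and metabolic enzymes are the usual products of such an epithelium. Names in the table were usable on part of the genome alone: the 19 cytoplasmic ribosomal protein genes in the 2 stretches had a lowest mean of 28247 per the authors' deposited table, whereas 45 of the 67 elsewhere were listed under 10. The stretches had been drawn with such genes, so that contrast is partly built in, and 71 CG-named genes with the required mean elsewhere were not used. All 6 hindgut regulators examined had counts and were called per the authors' deposited table. Of these, drm (a zinc finger gene, mean 13433, log2 0.96), cad (a homeobox gene, 4806, 0.81) and wg (a Wnt ligand gene, 505, 0.69) passed toward young, and raw (6842, -0.58), the zinc finger gene bowl (5012, -0.29) and the ligand gene dpp (786, -0.69) toward mature. So were genes of visceral muscle, with all 3 markers called: Mhc at a mean of 428275 and a log2 change of 0.90, sls at 0.63 and Msp300 at -0.21 per the authors' deposited table. Markers of midgut enterocytes (6 genes, means from 26.5 to 778), Malpighian tubule (2 genes, 453 and 600) and neurons (2 genes, 43.3 and 158) had means in the range of wg and dpp or below it per the authors' deposited table, 1 midgut gene and 1 neuronal gene being called, both toward mature. Of 4 hemocyte markers, NimC1 (mean 26.6) and Sr-CI (35.7) were higher in young, both at low means with SEs of 0.50 and 0.48. The abundant crq (8852, SE 0.08) was higher in mature, and He, at a mean of 4.40, had no adjusted p per the authors' deposited table. Of 3 fat body markers, the larval storage protein genes Lsp1beta (mean 109, log2 2.84) and Lsp1gamma (69.8, 1.83) were higher in young, and FASN1 (61173, -0.52) was higher in mature per the authors' deposited table. In bulk RNA, fewer cells of a type and less RNA per cell cannot be told apart, and the part of any of these cell types in the results was not tested.

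Most of the 35 genes differed between the ages, about as many in one direction as in the other. At an adjusted p under 0.05 (DESeq2 Wald test, Benjamini-Hochberg adjustment over all 10458 tested features), 16 were higher in young guts, 15 were higher in mature guts and 4 were not called per the authors' deposited table. Across all tested features the share called was 31.7%. The background in the 2 stretches was 40.3% of 2604 tested features called, 20.7% toward young and 19.7% toward mature. Among all 207 protein-coding genes of the stretches with the same minimum mean it was 71.5%, with 42.5% toward young and 29.0% toward mature. These include the 35 genes and the 5 left-out genes of sufficient mean. Without them, 43.1% of 167 genes passed toward young and 24.0% toward mature, and 12.6% were called at least 2-fold. Those 207 genes had a lower median SE than all tested features of the stretches, 0.08 against 0.18, and a larger median absolute log2 change, 0.46 against 0.38. At least 2-fold, 4 of the 35 were higher in young and 5 in mature, against 8.21% and 8.70% of those 207 genes, or 16.9% in both directions, and 13.6% of all tested features of the stretches (7.80% and 5.76%). Over the 35 genes the median log2 change was 0.07 and the median absolute change 0.62, with SEs from 0.07 to 0.14; over all tested features of the stretches the medians were -0.0070 and 0.38. When every fold change was shifted by 0.17 (log2), the median of the ribosomal protein genes, the counts became 11 higher in young and 16 in mature. This shift moves every feature toward mature. The shares of the 207 genes after it were not computed, and the shares above do not apply to these counts.

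The level that each age had can be approximated from the authors' deposited table, since the mean over equal numbers of libraries and the ratio between the ages fix both. These implied levels are normalized counts, carry the error of the fold change, and would be drawn slightly together if the fold changes were shrunken toward 0. They are given below as implied levels, and stand in for values per library. The minimum of 10000 applied to the mean over both ages. In mature guts CG31808, CG15818, CG6287, CG6180 and CG17834 had implied levels under it. In young guts CG17549, CG5390, CG13887, CG11147, CG9265 and CG8086 did. These genes met the minimum through the age in which they were higher, so the counts of called genes above are a description.

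**Figure D1:**
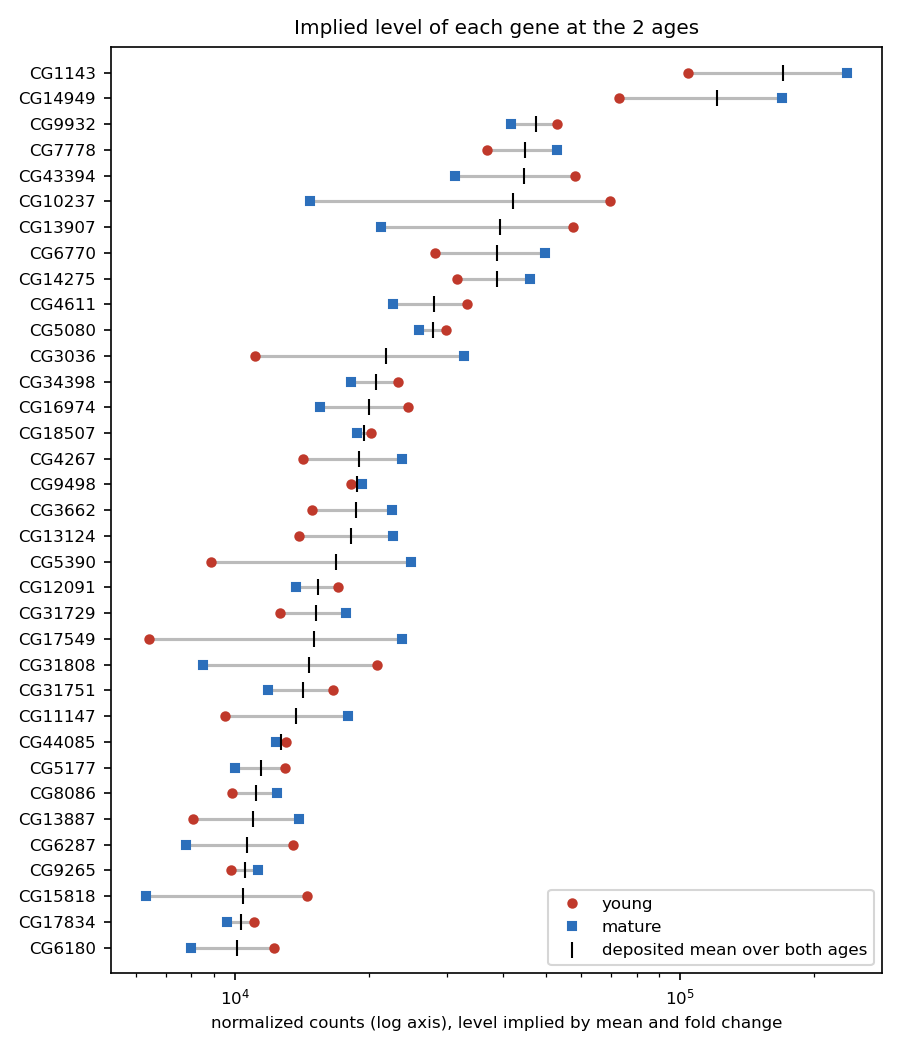
Implied level of each of the 35 genes in young (circles) and mature (squares) hindguts, in normalized counts on a log axis, with the deposited mean over both ages as a vertical mark; genes are ordered by that mean. CG1143 and CG14949 lie above all others at both ages, and the widest separations are those of CG10237, with young to the right, and CG17549, CG3036 and CG5390, with mature to the right.

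The most abundant pair lay side by side. CG1143 (3L, 2645368 to 2647192, plus strand) and CG14949 (3L, 2642184 to 2643424, minus strand) are transcribed away from each other with 1943 bases between the 2 genes. Their means were 170874 and 121132 per the authors' deposited table, and the pair made up 29.1% of the summed mean of the 35 genes. For CG1143 the implied level was 104454 in young and 237294 in mature guts, 2.27-fold apart per the authors' deposited table (log2 -1.18, SE 0.10, 95% interval -1.38 to -0.99). CG14949 had implied levels of 72900 and 169364, 2.32-fold apart per the authors' deposited table (log2 -1.22, SE 0.09, 95% interval -1.40 to -1.04). Both were thus higher in mature guts by nearly the same ratio. Neither gene overlaps another feature. The annotation gives them coding sequences of 296 and 208 codons in 2 exons each, and no role is given here for either. Because of this pair the implied levels of the 35 genes summed to 913070 in young and 1.10e+06 in mature guts; without it the sums were 735716 and 690526.

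Per kilobase of exon, which allows levels of different genes to be compared, the order changed. CG14949 came first at 129692 normalized counts per kilobase and CG1143 second at 103123 per the authors' deposited table, at ranks 5 and 10 among the 207 protein-coding genes of like mean. CG6770, CG14275 and CG7778 followed at 50177, 39732 and 20860 per kilobase per the authors' deposited table, and CG10237, CG17549, CG4611, CG9498 and CG5390 lay between 12034 and 15278. The lowest was CG44085, at 1232 per kilobase over 10317 bases of exon. The range was thus 16.9-fold by mean and 105-fold per kilobase. The median of the 35 genes, 8087 per kilobase, was close to that of the 167 genes of like mean with other names, 8130, per the authors' deposited table.

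**Figure D2:**
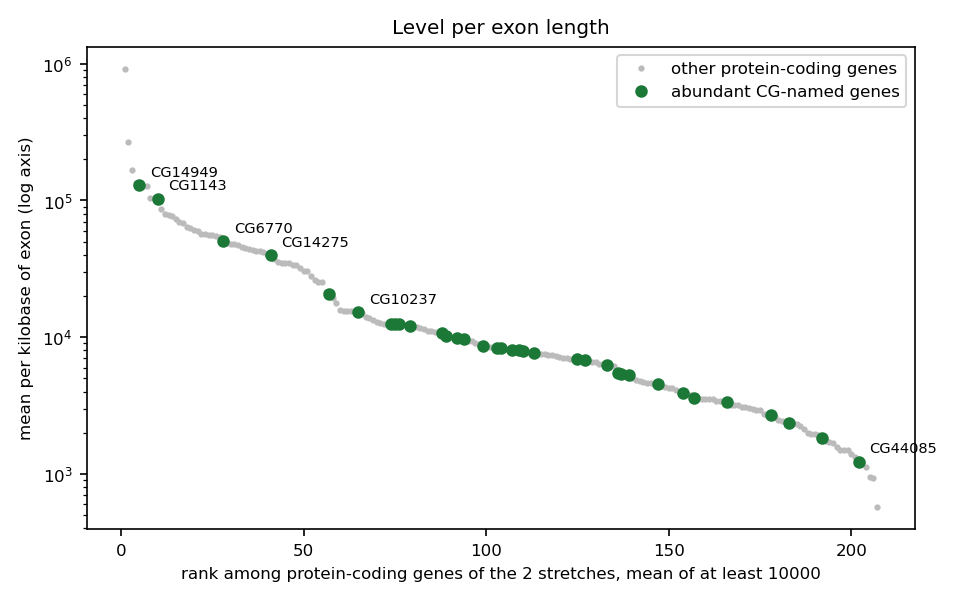
Mean per kilobase of exon (normalized counts per kilobase, log axis) against rank for the 207 protein-coding genes of the 2 stretches with a mean of at least 10000. CG14949 and CG1143 are at ranks 5 and 10, CG6770 at 28 and CG14275 at 41, while most of the large points lie beyond rank 60.

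The groups by role hold only the 19 genes with a given family, and the other 16 may belong to any of them. Membrane proteins formed a group of 5 genes. Of these, 4 passed toward mature and 1 toward young, beside 29.0% and 42.5% of the 207 genes of like mean, and the median log2 change was -0.80 per the authors' deposited table; the group was put together with the values known and gets no test. CG3036 (2L, 4892112 to 4903889), of the family of sodium-dependent phosphate and organic anion transporters, had implied levels of 11138 in young and 32715 in mature guts. That is a 2.94-fold difference per the authors' deposited table (log2 -1.55, SE 0.11, adjusted p = 7.57e-44). The ABC transporter gene CG11147 (2L, 5733675 to 5741244), of the H subfamily known from insects, had implied levels of 9509 and 17994, a log2 change of -0.92 (SE 0.09) per the authors' deposited table. For CG31729, a P4-type ATPase of the family that moves phospholipids between membrane leaflets, the log2 change was -0.49 (SE 0.07) per the authors' deposited table. CG13887, related to the mammalian endoplasmic reticulum protein BCAP31, had a log2 change of -0.80 (SE 0.08) per the authors' deposited table. These 4 genes were higher in mature guts, though CG3036 alone by more than 2-fold.

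The exception among them was CG13907 (3L, 877291 to 882013), of the monocarboxylate transporter family, which carries lactate, pyruvate and like compounds in animals. Its implied level was 57419 in young and 21314 in mature guts, 2.69-fold higher in young per the authors' deposited table (log2 1.43, SE 0.08, adjusted p = 3.57e-73). CG13907 has no intron and its gene lies within the span of Usp10 on the opposite strand, which had 15.3% of its mean, a log2 change of -0.06 (adjusted p = 0.702) per the authors' deposited table, and no exon base in common with it. CG13887 lies 37359 bases from CG13907, so these neighbouring members differed in opposite directions.

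Secreted and surface proteins were split, 2 higher in young and 2 in mature, beside 42.5% and 29.0% of the 207 genes of like mean. CG5390 (2L, 10304069 to 10306594), a serine protease homolog with a CLIP domain, a type of protein that takes part in extracellular cascades of insects, had implied levels of 8841 in young and 24879 in mature guts. The difference was 2.81-fold per the authors' deposited table (log2 -1.49, SE 0.08, adjusted p = 1.98e-69). CG14275 (2L, 8327456 to 8332911), a small protein of the Ly6 family of surface proteins, had implied levels of 31573 and 45985 and a log2 change of -0.54 (SE 0.12) per the authors' deposited table. On the young side, CG15818 (2L, 7410909 to 7412229), of the C-type lectin-like family of carbohydrate-binding proteins, had implied levels of 14570 and 6315. Its 2.31-fold difference carried the largest SE of the 35 genes per the authors' deposited table (log2 1.21, SE 0.14), and its 95% interval, 0.94 to 1.47, reached below 2-fold. CG16974, a protein with leucine-rich repeats, had a log2 change of 0.66 (SE 0.08) per the authors' deposited table.

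Enzymes and small-molecule binding proteins formed a group of 7 genes. Of these, 5 passed toward young, 1 toward mature and 1 in neither direction, beside 42.5% and 29.0% of the 207 genes of like mean, with a median log2 change of 0.37 per the authors' deposited table, again in a group formed with the values known and with no test; recentring ended 2 of the 5 calls, given below. The largest difference of all 35 genes toward young was that of CG10237 (2L, 19435850 to 19442727), a member of the CRAL-TRIO family, whose proteins bind lipids such as retinoids and tocopherol. Its implied level was 69811 in young and 14797 in mature guts, a 4.72-fold difference per the authors' deposited table (log2 2.24, SE 0.08, adjusted p = 2.52e-184). CG10237 was the only one of the 35 on either of the authors' lists of selected genes, the young one. A part of its span overlaps RanGAP on the opposite strand, at 7.99% of its mean and itself higher in young by a log2 change of 1.66 per the authors' deposited table, without a shared exon base.

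Smaller differences toward young were found for 4 other genes of the group. CG6287, the phosphoglycerate dehydrogenase that starts serine synthesis, had implied levels of 13519 in young and 7788 in mature guts and a log2 change of 0.80 (SE 0.10) per the authors' deposited table. CG6180, of the phosphatidylethanolamine-binding protein family, had a log2 change of 0.62 (SE 0.09) per the authors' deposited table. CG5177, of the trehalose phosphatase family, which completes the synthesis of the blood sugar of insects, and the PP2C-type phosphatase gene CG12091 had log2 changes of 0.37 (SE 0.09) and 0.31 (SE 0.09) per the authors' deposited table. Recentring on the ribosomal protein genes ended the calls of CG5177 (log2 0.20, adjusted p = 0.0769) and CG12091 (log2 0.14, adjusted p = 0.256). In the other direction, CG4267, of the lipase family, had implied levels of 14243 in young and 23725 in mature guts and a log2 change of -0.74 (SE 0.09) per the authors' deposited table. CG9498, placed with less certainty in a family related to ecdysteroid kinases, was not called, with a log2 change of -0.08 (95% interval -0.30 to 0.13) per the authors' deposited table.

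Nuclear or RNA-binding proteins were represented by 3 genes, 2 that passed toward young and 1 toward mature. Of the 207 genes of like mean, 42.5% and 29.0% did. The families given for CG9932 and CG4611, both of the young calls, are among the less certain ones. CG6770 (2L, 12045343 to 12046118), a protein of 69 codons related to the mammalian stress-response protein NUPR1, had implied levels of 28149 in young and 49726 in mature guts and a log2 change of -0.82 (SE 0.10) per the authors' deposited table. CG9932, a large zinc finger protein of 2171 codons, had the third highest mean of the 35 genes, 47412, and a log2 change of 0.34 (SE 0.08) per the authors' deposited table, a call that ended on recentring (log2 0.17, adjusted p = 0.0698). CG4611, with pentatricopeptide repeats, a motif of proteins that bind organelle RNA, had a log2 change of 0.55 (SE 0.08) per the authors' deposited table. It lies 11173 bases inside the end of the 3L stretch and is the only member within 1 Mb of an end, the ends having been set by the fit of names to counts.

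The 16 genes without a given role divided into 6 (37.5%) that passed toward young, 7 (43.8%) toward mature and 3 in neither direction. Of the 207 genes of like mean, 42.5% passed toward young and 29.0% toward mature. The median log2 change of the 16 genes was -0.07 per the authors' deposited table. The largest difference of the 35 genes toward mature was that of CG17549 (2L, 19387050 to 19390075), with implied levels of 6418 in young and 23757 in mature guts. This was a 3.70-fold difference per the authors' deposited table (log2 -1.89, SE 0.08, adjusted p = 2.71e-110). CG17549 lies 45774 bases from CG10237 on the same strand, so the members farthest apart in fold change are close in the genome. CG7778 (implied 36808 in young, 52975 in mature), CG3662 and CG13124 had log2 changes of -0.53 (SE 0.07), -0.60 (SE 0.07) and -0.70 (SE 0.07) per the authors' deposited table. CG8086 had the smallest called difference toward mature, with a log2 change of -0.34 (SE 0.10) per the authors' deposited table.

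Toward young guts, CG31808 (2L, 16704286 to 16716195) was 2.46-fold higher per the authors' deposited table (log2 1.30, SE 0.09, adjusted p = 3.28e-41), with implied levels of 20917 and 8500. The annotation gives it a coding sequence of 56 codons, the shortest of the 35, within 1929 bases of exon. CG43394 had implied levels of 58197 in young and 31237 in mature guts and a log2 change of 0.90 (SE 0.10) per the authors' deposited table; the opposite-strand gene PAPLA1, which spans it with 22.1% of its mean and no shared exon base, had a log2 change of 0.16 (adjusted p = 0.182). CG31751 and CG34398 had log2 changes of 0.48 (SE 0.09) and 0.35 (SE 0.07) per the authors' deposited table. CG5080 and CG17834 differed by 1.15-fold each toward young (adjusted p = 0.0126 and 0.0203 per the authors' deposited table). Both of these calls ended at an adjusted p under 0.01 and on recentring, which put their log2 changes at 0.03 each.

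**Figure D3:**
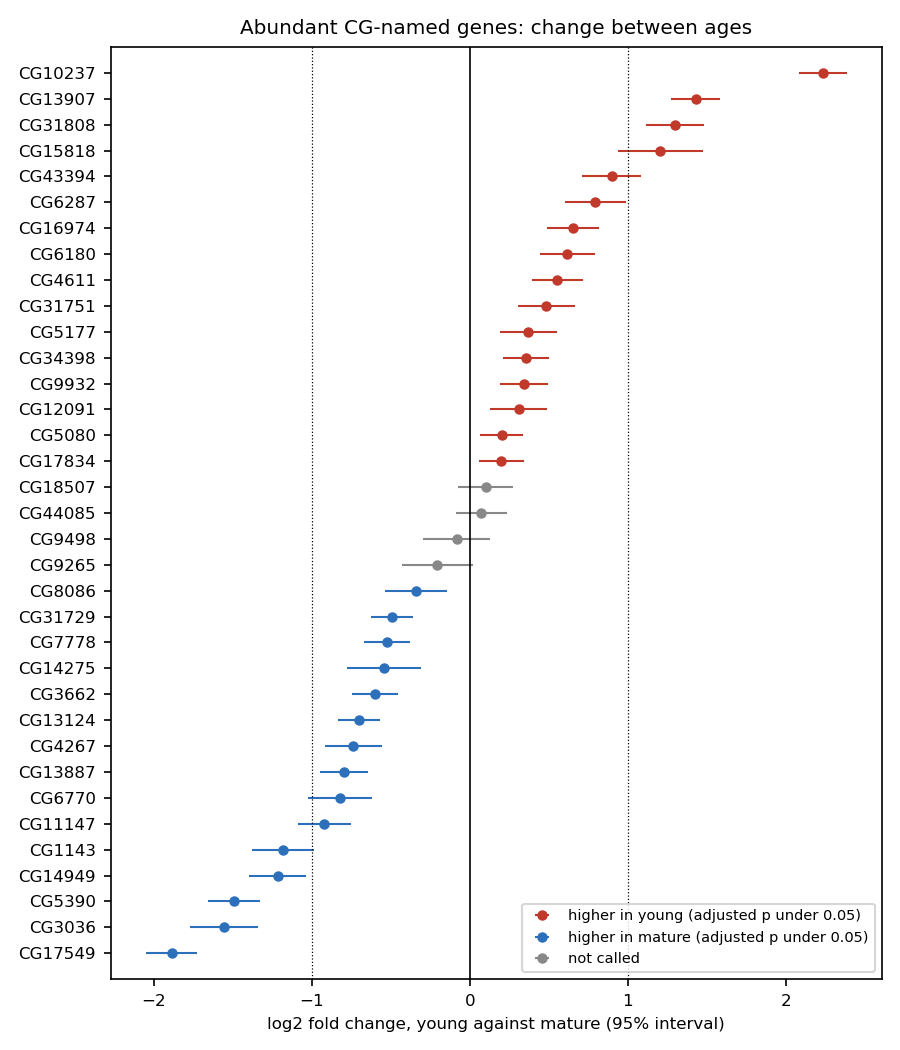
Log2 fold change of young against mature for each of the 35 genes with its 95% interval; dotted lines mark 2-fold. From CG10237 at 2.24 to CG17549 at -1.89 the genes spread over both sides of 0, and the intervals of 3 genes at the upper end and 4 at the lower end lie wholly beyond 2-fold.

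The 4 genes that were not called had SEs within the range of the other 31. CG44085 had a log2 change of 0.07 (95% interval -0.09 to 0.23), CG18507 one of 0.10 (-0.07 to 0.28), and CG9265 one of -0.20 (-0.43 to 0.02) per the authors' deposited table; CG9498 is described above. Their intervals, which lie within 0.5 of 0, leave room for small differences, and CG9265 was called toward mature on recentring (log2 -0.38, adjusted p = 0.00438). In all, 9 of the 35 genes had intervals within 0.5 of 0, and 22 of the 31 called genes had an absolute log2 change under 1 per the authors' deposited table. Most called genes of like mean were also under 2-fold: of the 207, 148 were called and 35 of them at least 2-fold. Shares of intervals within 0.5 of 0 or wholly beyond 2-fold were not computed for other genes.

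The genes lay scattered, 29 on 2L and 6 on 3L, with 18 on the plus and 17 on the minus strand. On 2L, 13 passed toward young and 12 toward mature, and on 3L, 3 and 3, beside 42.5% and 29.0% of the 207 genes of like mean. Apart from CG1143 and CG14949, pairs of members within 10 kb were CG5177 with CG15818, 2308 bases apart and both higher in young, and CG44085 with CG31729, 5953 bases apart, of which CG31729 alone was called. CG14275 and CG7778, 13708 bases apart, had nearly equal log2 changes of -0.54 and -0.53 per the authors' deposited table. Coding lengths ran from 56 to 2381 codons with a median of 406. Of the 11 genes with under 300 codons, 4 passed toward young (36.4%) and 7 toward mature (63.6%). Of the 24 longer ones, 12 (50%) and 8 (33.3%) did, and 4 were not called. The shares in the 207 genes of like mean were those given above, and the split by length was not tested. Across the 35 genes, Spearman's rho with the log2 change was 0.19 for coding length, -0.17 for the mean per kilobase and -0.11 for the mean, all weak; the genes share libraries and are not independent. Of the 18 members whose span overlaps another feature, CG13907 and CG43394 were the only ones where that feature had at least 10% of the member's mean.

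Genes of like abundance that have other names are set beside the 35 as a description; the difference between the sets was not tested. Of 167 such genes in the 2 stretches, 67.1% were called, 43.1% toward young and 24.0% toward mature, and 12.6% at least 2-fold, with a median absolute log2 change of 0.38 per the authors' deposited table. Of the 35 CG-named genes, 88.6% were called, 45.7% toward young and 42.9% toward mature, and 25.7% at least 2-fold. Median SEs were 0.08 and 0.09. Of CG-named genes of lower means, 57.4% of 256 were called at means from 1000 to 10000 and 37.2% of 290 tested at means from 100 to 1000 per the authors' deposited table. Median SEs of these 2 sets were larger, 0.12 and 0.21, and 14.5% and 17.6% were called at least 2-fold.

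**Figure D4:**
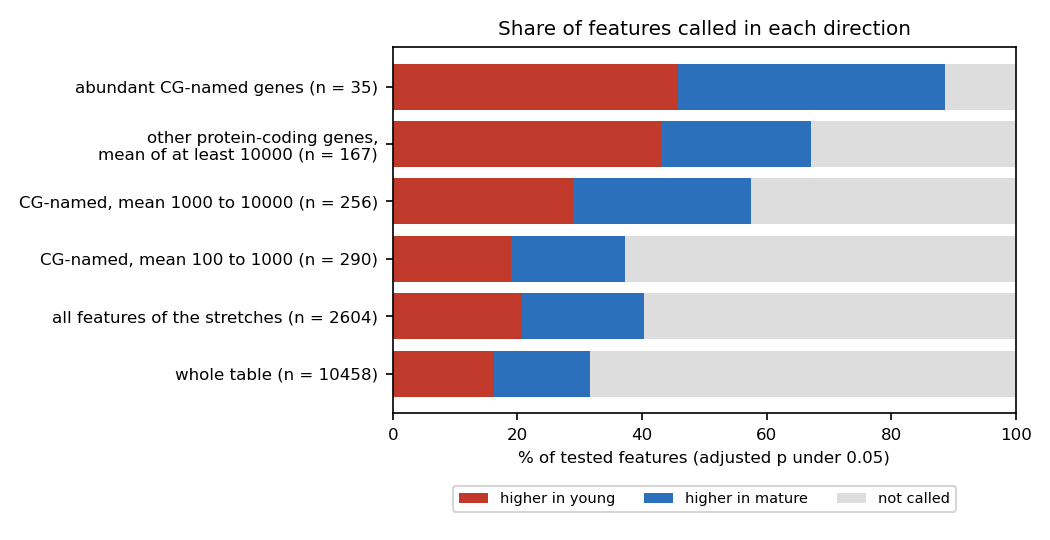
Share of tested features (percent) called higher in young, called higher in mature or not called at an adjusted p under 0.05, for the 35 genes and 5 other sets. The bars of called features reach 88.6% for the 35 genes, 67.1% for the other genes of like mean, 57.4% and 37.2% for CG-named genes of lower means, and 40.3% for all features of the stretches.

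What the rule left out bears on these counts. The 5 sufficiently abundant genes that it left out were all higher in mature guts, from 5.80-fold for CG16713 to 16.4-fold for CG7296 per the authors' deposited table, with CG3604, CG16704 and CG17108 between them; CG7294, 10.9-fold higher in mature, had a mean of 927. With the 5 put back, 16 of 40 genes passed toward young and 20 toward mature, 4 and 10 of them at least 2-fold, and the median log2 change was -0.27. Just inside the minimum mean lay CG6180 (10101), CG17834 (10317) and CG15818 (10442), with log2 changes of 0.62, 0.20 and 1.21 per the authors' deposited table. Just outside lay CG11353 (9995), CG13284 (9894) and CG42748 (9823), with log2 changes of -0.89, -0.96 and -0.05 per the authors' deposited table.

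**Figure D5:**
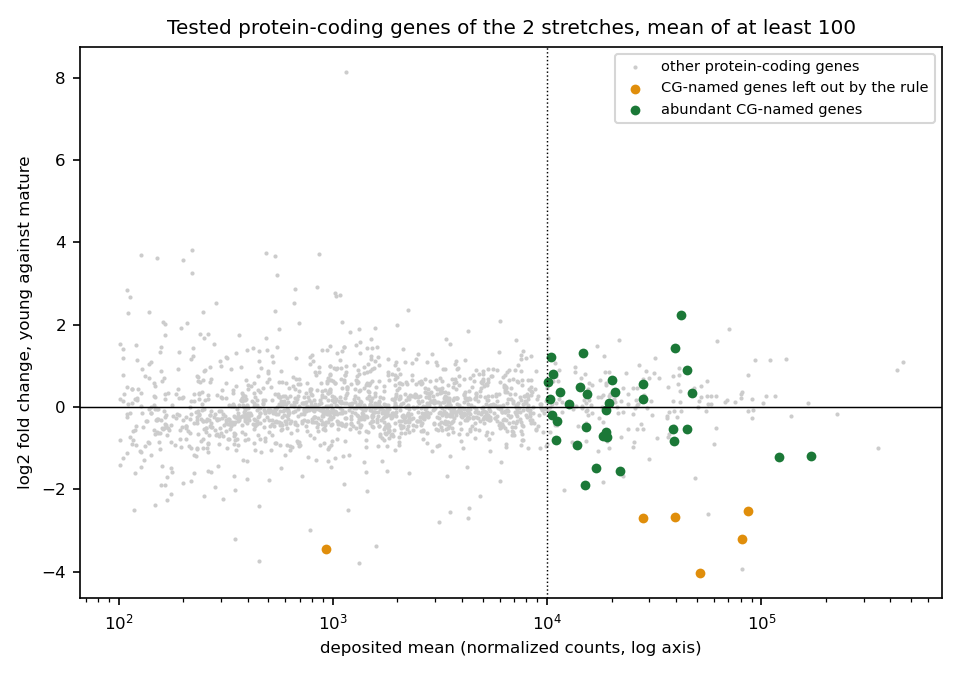
Log2 fold change of young against mature plotted over the deposited mean (normalized counts, log axis) for tested protein-coding genes of the 2 stretches with a mean of at least 100; the dotted line marks 10000. The 35 genes spread from -1.89 to 2.24 on both sides of 0, and the 6 genes left out lie below -2.5.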

How the data were processed

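Per the submitters' processing notes, reads went through Trim Galore, HISAT2 and DESeq2 with build BDGP6; no version, counting program or strand setting is given in the sources used here. No library depth was analysed; the deposited means summed to 2.94e+07. The deposited mean is a signal, namely normalized counts averaged across libraries, as the columns of DESeq2 are defined and per the file headers. Fold change and SE deposited by the authors were read as log2 values, young against mature. The deposited Wald score equals their ratio. The deposited p-value and its adjusted form belong to the authors' DESeq2 Wald test, and the adjustment could be recomputed exactly.

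Identifiers were matched to Ensembl release 115 of BDGP6 (23851 of 23932) for symbols, 1-based positions and exon lengths; all 35 genes have the same symbol in RefSeq. Intervals are 1.96 SE on either side. Implied levels a and b solve mean = (a + b) / 2 and a / b = the fold change. The members, the lists and the groups by role were chosen with earlier results of these data known. The genes named are those at least 2-fold apart, the 10 highest by mean and per kilobase, those nearest the minimum mean and nearest no change, pairs within 10 kb and those left out by the rule; the remaining members were added so that each is described. Grouping by protein sequence, closest relatives and promoter motifs needed sequences that were not used here. Tables were handled with pandas 2.3.3 and numpy 2.4.6 under Python 3.11.15, statistics with scipy 1.17.1, figures with matplotlib 3.10.9.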

Additional observations from a re-analysis of the deposited data

How the results depend on the processing

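No paired analysis was possible because each gene has 1 fold change rather than a value for each library, and for the same reason no replicate could be left out. The counts of 16 and 15 members higher in young and in mature stayed within 1.5 times at an adjusted p under 0.01, without the low-mean filter and adjusted over the 2 stretches alone. They also did so after recentring, with the left-out genes put back, and without CG13907 and CG43394. Only these 2 of the 18 overlapping members were left out, being overlapped by a feature with at least 10% of their mean. A minimum mean of 20000 kept 13 genes, 7 higher in young and 6 in mature, 2 and 3 of them at least 2-fold, with a median log2 change of 0.20. A minimum mean of 5000 gave 88 genes, 33 and 34 of them called, 9 at least 2-fold higher in young, with a median of -0.0049. The counts move with the number of genes taken in, and the shares called among other genes at these minimum means were not computed. The cause of the shifts in the median was not tested. The median of 0.07 changed sign under other settings too. It was -0.10 after recentring, which subtracts a constant, and -0.0836 without CG13907 and CG43394. With the left-out genes it was -0.27, and without the member near a stretch end -0.0053, the last setting being chosen after seeing the data. The median therefore gives the members no direction. With the left-out genes, 10 were at least 2-fold higher in mature. A Wald test against a 2-fold change called 3 genes in each direction, in place of 4 and 5: CG15818, CG14949 and CG1143 no longer passed.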

Other observations

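Genes next to the 35 showed large differences in places; these were picked after their values were seen. Beside CG5177 lies CG5171, of the same trehalose phosphatase family, with a mean of 1438 and a log2 change of 1.42 (SE 0.12) against 0.37 for CG5177 per the authors' deposited table; how reads were assigned between these relatives is not known. CG31808 lies 3736 bases from Cyt-c-p, the gene of the electron carrier cytochrome c, which had a log2 change of 1.90 (SE 0.10) per the authors' deposited table. CG3036 has hoe1 as its right-hand neighbour, with a log2 change of -1.45 (SE 0.12) beside its own -1.55 per the authors' deposited table. Both neighbours of CG13887, CG13901 (log2 -0.77) and JMJD5 (-0.63), were higher in mature like CG13887 itself, and both neighbours of CG4611, CG10674 (0.67) and CHMP2B (0.62), were higher in young like CG4611 per the authors' deposited table. In contrast CG1246, 855 bases from CG1143, was higher in young (log2 1.24, SE 0.14) per the authors' deposited table. The other neighbours called against their member were all higher in mature. They were Ttc30 (log2 -3.20) beside CG9932, CG12502 (-1.80) beside CG13907 and chm (-0.83) beside CG15818. Sema1a (-0.65) beside CG17834 and msl-1 (-0.46) beside CG31751 were the remaining ones. The gene tadr, 3902 bases from the uncalled CG9265, had a log2 change of 2.36 (SE 0.14) per the authors' deposited table.

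Over the 31 called members, 18 of 62 nearest tested protein-coding neighbours were called in the same direction, 6 in the opposite one and 38 were not called. Among all 982 called protein-coding genes of the stretches, 26.3% of neighbours were called in the same direction and 19.9% in the opposite one, against 29.0% and 9.68% for the members. The 62 are not all distinct or independent. CG1143 and CG14949 count as neighbours of each other, CG15818 counts for CG5177, and witty counts for both CG7778 and CG14275. Genes overlapping a member were not counted, and the difference was not tested.

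CG-named genes with means from 1000 to 10000 also differed in both directions. Of 256, 74 passed toward young, 26 of them by at least 2-fold, and 73 toward mature, 11 of them by at least 2-fold, per the authors' deposited table. That is 57.4% called and 14.5% at least 2-fold, beside 54.2% and 7.31% of 629 protein-coding genes with other names at those means; the difference was not tested.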
